A study of Mus musculus with 16 samples.

Results

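The gene set comprised 9 liver genes, the urea cycle enzymes Cps1, Otc, Ass1, Asl and Arg1 and 4 other enzymes of nitrogen and amino acid breakdown, Gls2, Tat, Hal and Etnppl. The rule that selects them uses gene symbols, and the list was chosen with earlier results of these data known. Of the 9, 8 had a row on the array that the platform annotation names, among 16593 genes with such a row. Of these 8, 7 lay above the filter on signal and were tested among 7788 genes. Gls2, the liver glutaminase that frees ammonia from glutamine, had no row under its symbol. Tat, the tyrosine aminotransferase, had a row below the filter, and its values are given without being counted among the 7.

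The livers came from 16 male mice of strain C57BL/6, and the RNA of each was read on its own Illumina expression array. The mice formed 4 groups of 4: Tg_WD (labelled CYP7A1 transgenic, Western diet), WT_WD (wild type, Western diet), Tg_Chow (labelled transgenic, chow) and WT_Chow (wild type, chow). Per the labels, mice were 12 to 14 weeks old at the start, ate their diet for 4 months and were about 6 months old when livers were taken. Fat supplied 42% of the calories of the Western diet, which also held 0.2% cholesterol. A fast of about 16 h before sampling was common to the 4 groups, so each level below is that of a fasted liver. No source used here gives the promoter that drives the transgene or the species it came from.

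The urea cycle turns ammonia into urea, and in mammals it runs complete in the hepatocyte, mainly around the portal vein. Cps1 makes carbamoyl phosphate from ammonia and bicarbonate, Otc joins it to ornithine to give citrulline, and Ass1 couples citrulline with aspartate. Asl splits the product into arginine and fumarate, and Arg1 hydrolyses arginine to urea and ornithine. Transcripts of these enzymes are known to rise with fasting, glucagon, glucocorticoids and dietary protein. Hal, histidine ammonia-lyase, starts histidine breakdown, and Tat starts tyrosine breakdown. Etnppl encodes ethanolamine-phosphate phospho-lyase, which breaks phosphoethanolamine into acetaldehyde, phosphate and ammonia, and is known as a transcript that rises in the fasted liver.

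Promoter sequences were available in the RefSeq table of assembly GRCm38.p6 for 5 of the 9 genes, Ass1, Etnppl, Hal, Otc and Tat. Those of Etnppl, which fell on the Western diet in both genotypes, of Ass1, which fell in WT livers, and of Hal and Otc, which did not pass the test, are shown so that both kinds can be seen side by side. Each is the 250 bases before the annotated start on the plus strand, written 5′ to 3′: chr3:130617198-130617447 for Etnppl (the first of its 2 windows), chr2:31470020-31470269 for Ass1, chr10:93488518-93488767 for Hal and chrX:10252055-10252304 for Otc. Capitals mark a TATA box sequence (TATAAA, here on the minus strand).
Etnppl: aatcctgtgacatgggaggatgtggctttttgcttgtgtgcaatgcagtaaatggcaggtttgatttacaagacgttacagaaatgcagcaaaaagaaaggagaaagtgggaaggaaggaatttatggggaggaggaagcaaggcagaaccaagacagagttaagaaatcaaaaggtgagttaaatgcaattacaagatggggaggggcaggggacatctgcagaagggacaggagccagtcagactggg
Ass1: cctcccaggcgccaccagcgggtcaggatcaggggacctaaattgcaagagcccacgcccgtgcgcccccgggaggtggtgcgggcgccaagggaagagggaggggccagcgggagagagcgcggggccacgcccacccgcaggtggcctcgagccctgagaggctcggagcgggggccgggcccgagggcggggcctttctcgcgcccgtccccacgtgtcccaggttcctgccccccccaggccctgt
Hal: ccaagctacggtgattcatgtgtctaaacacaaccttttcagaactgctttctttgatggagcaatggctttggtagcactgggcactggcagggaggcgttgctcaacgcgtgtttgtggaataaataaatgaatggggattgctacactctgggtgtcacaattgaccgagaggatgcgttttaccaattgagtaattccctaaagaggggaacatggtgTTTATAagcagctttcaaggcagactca
Otc: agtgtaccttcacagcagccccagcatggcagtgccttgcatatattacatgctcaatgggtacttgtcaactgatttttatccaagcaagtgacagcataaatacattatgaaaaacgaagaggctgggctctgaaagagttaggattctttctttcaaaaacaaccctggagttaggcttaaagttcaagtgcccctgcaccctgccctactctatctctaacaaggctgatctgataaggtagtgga
GC content was 46% for this Etnppl window, 75.6% for Ass1, 45.6% for Hal and 43.6% for Otc. In the 6 windows of the 5 genes, 5 motifs were searched on both strands, none of which contains another. TATAAA stood in 1 window, that of Hal, 28 bases before the start, and in 12.4% of all 32851 promoters of the same length. The cAMP response half-site TGACG (17.8% of all promoters), the glucocorticoid receptor half-site TGTTCT (16.1%), the C/EBP motif TTGCGCAA (0.164%) and the HNF4 motif CAAAGTCCA (0.384%) were in none of the 6 windows.

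Levels below are log2 of the background-corrected, quantile-normalized signal. Comparisons come from 1 limma fit over the 16 arrays, and a gene was called at a Benjamini-Hochberg adjusted p under 0.05 over 7788 genes. On linear signals before correction, array means ran from 348.1 to 446.6. Hepatocyte markers, led by Trf, Apoa1 and Ttr, had a summed signal (normalized values taken off the log scale) of 116000 to 123000 in Tg_WD, 115000 to 120000 in WT_WD, 113000 to 117000 in Tg_Chow and 110000 to 117000 in WT_Chow livers. With diet, 0 of 7 hepatocyte markers were called in Tg livers (1 lower at an unadjusted limma p under 0.05), and 2 of 7 fell in WT livers, 28.6% beside 8.06% of all genes. These 2, named after their values were seen, were Serpinc1 (-0.47, limma adjusted p = 0.00675) and Alb (-0.38, limma adjusted p = 0.0174). The Alb row was dim, averaging 6.44 in WT_WD and 6.82 in WT_Chow livers, near the signal filter of 6.29. Cyp7a1, the rate-limiting enzyme of bile acid synthesis, was lower in livers labelled Tg. Its log2 signals were 6.52, 6.28, 6.24 and 7.35 in Tg_WD livers, 11.58, 10.80, 10.02 and 12.40 in WT_WD livers, 7.85, 6.46, 7.29 and 6.66 in Tg_Chow livers and 11.69, 12.26, 11.50 and 11.30 in WT_Chow livers. The 8 Tg-labelled arrays lay below the 8 WT-labelled arrays, with differences of -4.60 on the Western diet (SE 0.42, limma adjusted p = 1.1e-06) and -4.62 on chow (SE 0.42, limma adjusted p = 1.63e-06). No source used here says whether this probe also reads the transgene, and the cause of the lower signal was not tested. "Tg" below means the library labelled Tg, and each direction between genotypes rests on the labels.

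**Figure D1:**
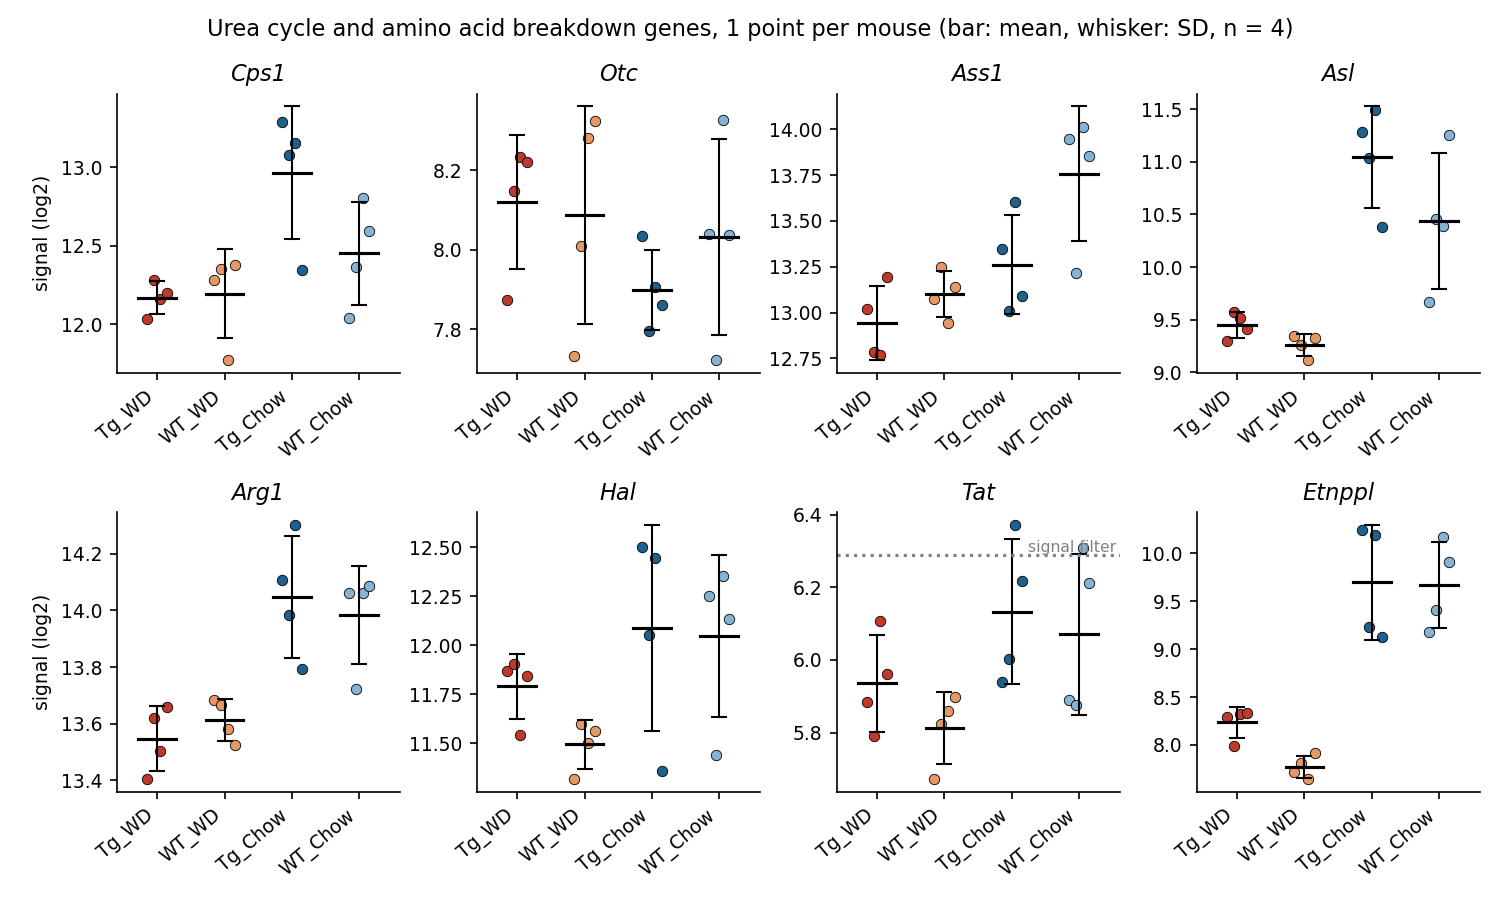
Log2 signal (y axis, a separate range for each gene that does not start at 0) of the 8 genes with a named row, by group (x axis), with 1 point per mouse, a bar at the mean and a whisker of 1 SD (n = 4). Asl, Arg1 and Etnppl lie lower in both Western diet groups than in both chow groups with no overlap, Otc overlaps throughout, and most Tat points lie under the dotted line at the signal filter of 6.29.

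Among the 5 cycle enzymes, Asl showed the largest diet difference. Asl gave log2 signals of 9.29, 9.57, 9.52 and 9.41 in Tg_WD livers, 9.34, 9.25, 9.11 and 9.32 in WT_WD livers, 11.28, 11.04, 11.49 and 10.38 in Tg_Chow livers and 9.66, 10.45, 10.39 and 11.25 in WT_Chow livers. The 8 Western diet arrays were the 8 lowest, while the chow arrays were spread widely, with WT_Chow replicate 1 closest to the Western diet range. Asl fell on the Western diet by 1.60 in Tg livers (3.03-fold lower, SE 0.25, limma adjusted p = 0.00107) and by 1.18 in WT livers (2.27-fold lower, SE 0.25, limma adjusted p = 0.00326). The diet changes in Tg and WT livers differed by -0.42 (SE 0.36, interaction adjusted p = 0.566).

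Arg1, the last step of the cycle, was read by a bright probe, at the 99.7th percentile of rows by mean signal. Its log2 signals were 13.41, 13.62, 13.50 and 13.66 in Tg_WD livers, 13.68, 13.67, 13.58 and 13.53 in WT_WD livers, 14.11, 13.99, 14.30 and 13.79 in Tg_Chow livers and 14.06, 13.72, 14.06 and 14.09 in WT_Chow livers. Within each genotype every Western diet array lay below every chow array, though the gap was small. Arg1 fell on the Western diet by 0.50 in Tg livers (1.41-fold lower, SE 0.10, limma adjusted p = 0.0061) and by 0.37 in WT livers (1.29-fold lower, SE 0.10, limma adjusted p = 0.0203). The call in WT livers was lost without WT_Chow replicate 3 (adjusted p = 0.0603), WT_Chow replicate 4 (adjusted p = 0.0537), WT_WD replicate 3 (adjusted p = 0.0535) or WT_WD replicate 4 (adjusted p = 0.0511). Raw linear signals of Arg1 were 10090 to 21050 on arrays whose brightest rows read 26120 to 33940.

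Ass1, which builds argininosuccinate, was lower on the Western diet in WT livers. It read 13.02, 12.79, 12.77 and 13.19 in Tg_WD livers, 13.07, 13.25, 12.94 and 13.14 in WT_WD livers, 13.35, 13.01, 13.60 and 13.09 in Tg_Chow livers and 13.95, 13.22, 14.01 and 13.86 in WT_Chow livers. Of the WT_Chow arrays, 3 stood above all others, and WT_Chow replicate 2 lay inside the WT_WD range, so those groups overlap. In Tg livers the diet difference was -0.32 (SE 0.16, 95% interval -0.66 to 0.02, limma adjusted p = 0.223). In WT livers Ass1 fell by 0.66 (1.58-fold lower, SE 0.16, limma adjusted p = 0.00895). The 2 diet differences were not shown to differ, with an interaction of 0.34 (SE 0.23, adjusted p = 0.448).

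Cps1, the entry step, was lower on the Western diet in Tg livers. It read 12.04, 12.28, 12.16 and 12.20 in Tg_WD livers, 12.28, 12.35, 11.77 and 12.38 in WT_WD livers, 13.29, 13.08, 13.15 and 12.34 in Tg_Chow livers and 12.04, 12.37, 12.81 and 12.59 in WT_Chow livers. Of the Tg_Chow arrays, 3 were the highest of the 16, while WT_WD and WT_Chow overlapped. Cps1 fell by 0.79 on the Western diet in Tg livers (1.73-fold lower, SE 0.19, limma adjusted p = 0.0148), a call lost without Tg_Chow replicate 1 (-0.69, adjusted p = 0.0504). In WT livers the difference was -0.26 (SE 0.19, 95% interval -0.66 to 0.15, limma adjusted p = 0.383). The interaction of -0.54 did not pass (SE 0.27, 95% interval -1.11 to 0.03, adjusted p = 0.285).

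Otc, the other mitochondrial step, did not pass the test in any of the 5 comparisons. It read 7.87, 8.15, 8.23 and 8.22 in Tg_WD livers, 7.73, 8.01, 8.28 and 8.32 in WT_WD livers, 8.03, 7.79, 7.91 and 7.86 in Tg_Chow livers and 8.04, 7.72, 8.33 and 8.04 in WT_Chow livers. The 4 groups overlapped throughout. The diet difference was 0.22 in Tg livers (95% interval -0.06 to 0.50, limma adjusted p = 0.321) and 0.06 in WT livers (95% interval -0.23 to 0.34, limma adjusted p = 0.816). These intervals leave out a fall in Otc of the size fitted for Asl in either genotype.

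Of the genes outside the cycle, Etnppl had the largest diet difference in WT livers among the 7. Its log2 signals were 8.29, 7.99, 8.32 and 8.33 in Tg_WD livers, 7.71, 7.81, 7.65 and 7.91 in WT_WD livers, 10.24, 9.23, 10.19 and 9.13 in Tg_Chow livers and 9.18, 9.41, 10.17 and 9.91 in WT_Chow livers. All 8 Western diet arrays lay below all 8 chow arrays. Etnppl fell by 1.46 in Tg livers (2.76-fold lower, SE 0.24, limma adjusted p = 0.00134) and by 1.90 in WT livers (3.73-fold lower, SE 0.24, limma adjusted p = 3.56e-05). The interaction was 0.44 (SE 0.34, adjusted p = 0.518).

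Hal, the histidine ammonia-lyase, did not pass the test with diet in either genotype. It read 11.87, 11.91, 11.55 and 11.84 in Tg_WD livers, 11.32, 11.60, 11.50 and 11.57 in WT_WD livers, 12.50, 12.05, 12.45 and 11.36 in Tg_Chow livers and 12.25, 11.44, 12.36 and 12.14 in WT_Chow livers. Tg_Chow replicate 4 and WT_Chow replicate 2 lay within or below the Western diet ranges, and the other 6 chow arrays lay above them. The difference was -0.30 in Tg livers (SE 0.22, 95% interval -0.75 to 0.16, limma adjusted p = 0.415) and -0.55 in WT livers (SE 0.22, 95% interval -1.01 to -0.10, limma adjusted p = 0.0838). In WT livers Hal was called without WT_Chow replicate 2 (-0.75, adjusted p = 0.0171) or Tg_Chow replicate 4 (adjusted p = 0.0261), and with median scaling (-0.71, adjusted p = 0.0417).

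Tat was dim, at the 17.6th percentile of rows, so its values are close to background. It read 5.88, 5.79, 6.11 and 5.96 in Tg_WD livers, 5.67, 5.82, 5.86 and 5.90 in WT_WD livers, 5.94, 6.00, 6.37 and 6.22 in Tg_Chow livers and 5.89, 5.87, 6.31 and 6.21 in WT_Chow livers. The groups overlapped. In a fit with no filter on signal the diet difference was -0.20 in Tg livers (limma adjusted p = 0.414) and -0.26 in WT livers (limma adjusted p = 0.187).

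Counted together, 4 of the 7 fell and 0 rose on the Western diet in Tg livers (Cps1, Asl, Arg1 and Etnppl), where 4.66% of all genes tested were called lower and 9.72% in either direction. Likewise 4 of 7 fell and 0 rose in WT livers (Ass1, Asl, Arg1 and Etnppl), where 8.06% were called lower and 18.8% in either direction. Arg1, Asl and Etnppl fell in both genotypes. The median of the 7 log2 fold changes was -0.50 in Tg livers and -0.55 in WT livers, beside -0.00 and -0.03 over all genes. The diet groups of a genotype did not overlap, with the Western diet lower, for 4 of 7 genes in Tg livers (8.71% of all genes) and 3 of 7 in WT livers (11% of all genes). The members were chosen with earlier results of these data known, so the comparison with all genes is a description and not a test. Leaving out 1 array gave 3 to 4 calls in Tg and 3 to 5 in WT livers. No interaction passed for the 7 genes, with 0 also at an unadjusted p under 0.05 in limma, and 5.43% of all genes were called.

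**Figure D2:**
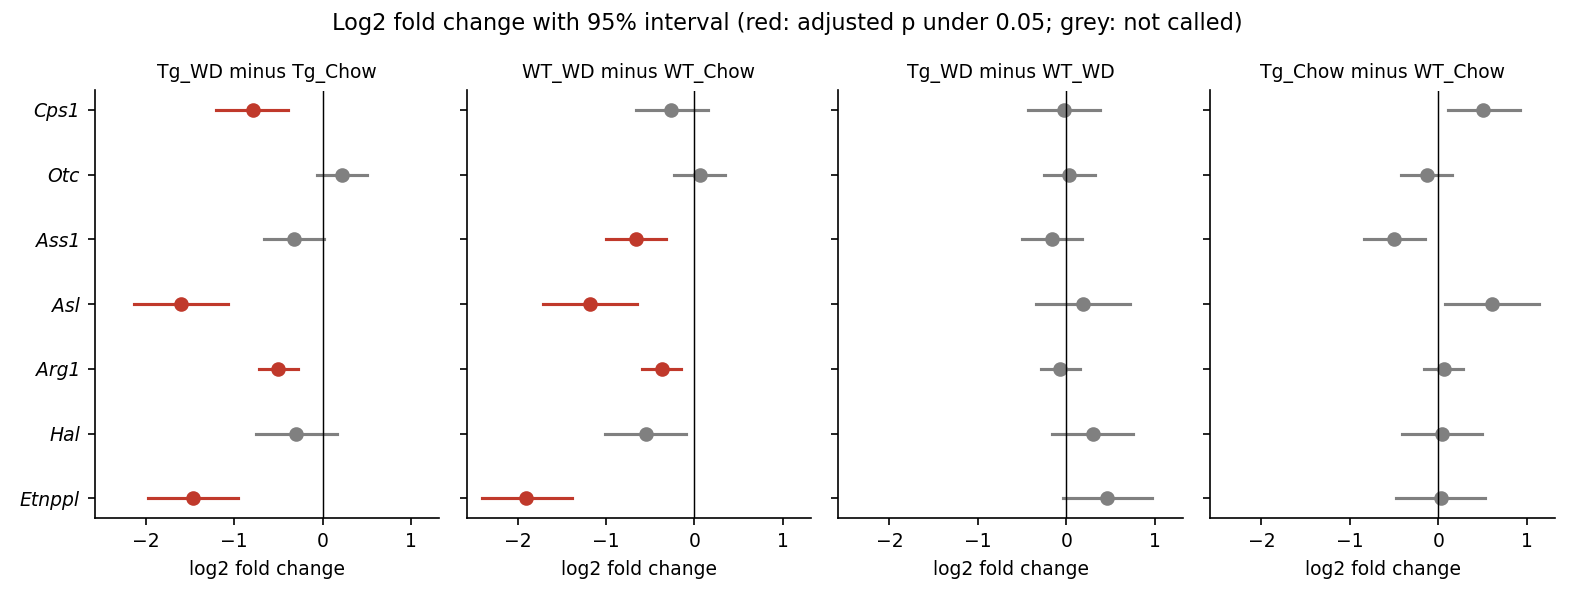
Log2 fold change (x axis) of the 7 tested genes (y axis) in 4 comparisons, points with 95% confidence intervals from limma, red where the adjusted p was under 0.05. The 8 called values are all diet falls, 4 in Tg livers at -1.60 to -0.50 and 4 in WT livers at -1.90 to -0.37, and the intervals of Otc span 0 in each panel.

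Markers of other cells differed between the same groups. The summed linear signal of 3 erythroid genes, led by Hba-a1, was 8100 to 10100 in Tg_WD, 4560 to 9160 in WT_WD, 16600 to 27300 in Tg_Chow and 13400 to 25500 in WT_Chow livers, and 1 of the 3 fell with diet in Tg livers and all 3 in WT livers. For 15 macrophage markers, led by Vsig4, Lgals3 and Lyz2, the sum was 5010 to 8340 in Tg_WD, 8480 to 12400 in WT_WD, 4280 to 7610 in Tg_Chow and 2080 to 4710 in WT_Chow livers. In Tg livers 0 of these 15 markers were called with diet (3 higher at an unadjusted limma p under 0.05), and in WT livers 12 rose and 1 fell. The sum of 13 stellate cell and matrix genes was 5310 to 5930 in Tg_WD, 8220 to 8840 in WT_WD, 4640 to 5840 in Tg_Chow and 4590 to 6830 in WT_Chow livers. Of these 13, 1 rose with diet in Tg livers and 11 in WT livers. Endothelial markers, 9 in number, summed to 4280 to 4760 in Tg_WD, 4270 to 5640 in WT_WD, 4050 to 5100 in Tg_Chow and 2030 to 4060 in WT_Chow livers. With diet, 0 of the 9 were called in Tg livers (1 lower at an unadjusted limma p under 0.05) and 6 rose in WT livers. Lymphocyte, neutrophil and cholangiocyte markers had 2 tested genes each. The part of cell makeup in the diet differences was not tested, and in whole liver fewer cells of a type and less RNA per cell cannot be told apart.

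Zonation markers were set beside the members, since the cycle is richest near the portal vein. The summed linear signal of 6 periportal markers other than Hal, led by Cyp2f2, Ctsc and Pck1, was 15000 to 16100 in Tg_WD, 12500 to 16400 in WT_WD, 11200 to 14500 in Tg_Chow and 10200 to 14600 in WT_Chow livers. Cyp2f2 made up most of this sum, so it mainly follows 1 gene. In Tg livers the Western diet range of the sum lay above the chow range, and in WT livers the ranges overlapped. With diet, 0 of 7 periportal markers, Hal included, were called in Tg livers (3 higher at an unadjusted limma p under 0.05). In WT livers 2 rose and 1 fell, 28.6% and 14.3%, beside 10.7% and 8.06% of all genes. The 1 that fell was Pck1, averaging 8.83 in WT_WD and 10.38 in WT_Chow livers, so the list did not move in 1 direction. The 11 pericentral markers, led by Cyp2e1, Oat and Cyp27a1, summed to 45400 to 51900 in Tg_WD, 46900 to 53600 in WT_WD, 47200 to 51100 in Tg_Chow and 54000 to 58500 in WT_Chow livers. With diet, 2 of these 11 rose and 0 fell in Tg livers, 18.2% beside 5.06% of all genes called higher. In WT livers 2 fell and 0 rose, 18.2% beside 8.06% called lower. Glul, the pericentral glutamine synthetase that takes up ammonia left by the cycle, was chosen for mention after its values were seen. It differed with diet by 0.59 in Tg livers (limma adjusted p = 0.121) and by 0.36 in WT livers (limma adjusted p = 0.311), neither of which passed. It stayed uncalled under 25 of 27 alternatives in Tg livers and 26 in WT livers. With only the 2 groups in the fit it was called in Tg livers (0.59, limma adjusted p = 0.0203). Without WT_Chow replicate 1 both were called (0.59 in Tg livers, adjusted p = 0.0184, and 0.66 in WT livers, adjusted p = 0.00926).

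Between genotypes, none of the 7 genes was called on either diet. On the Western diet, where 15% of all genes were called, 0 of 7 passed, and 0 had an unadjusted limma p under 0.05. Etnppl was nearest, with the 4 Tg_WD arrays (7.99 to 8.33) above the 4 WT_WD arrays (7.65 to 7.91) and a difference of 0.46 (SE 0.24, 95% interval -0.04 to 0.97, limma adjusted p = 0.216). Of all genes, 11.1% had non-overlapping groups with Tg_WD higher. A fit to these 8 arrays alone called it (0.46, limma adjusted p = 0.00558). For Cps1, Otc, Arg1 and Ass1 the genotype difference on the Western diet was -0.03 (95% interval -0.43 to 0.38), 0.03 (-0.25 to 0.32), -0.07 (-0.29 to 0.15) and -0.16 (-0.50 to 0.18). Differences of Asl and Hal were 0.19 (95% interval -0.34 to 0.72) and 0.30 (-0.16 to 0.75). These SE and intervals use 1 spread per gene shared by the 4 groups, not that of the Western diet groups alone. For 6 of the 7 genes the SD was smaller on the Western diet in both genotypes. For Etnppl it was 0.16 in Tg_WD and 0.12 in WT_WD, but 0.60 in Tg_Chow and 0.45 in WT_Chow livers.

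On chow 9.96% of all genes were called and 0 of 7 members passed, with 3 at an unadjusted limma p under 0.05. These 3 did not share a direction. Ass1 differed by -0.50 in Tg against WT livers (SE 0.16, 95% interval -0.84 to -0.15, limma adjusted p = 0.0619). Cps1 differed by 0.51 (SE 0.19, 95% interval 0.11 to 0.92, limma adjusted p = 0.0964) and Asl by 0.61 (SE 0.25, 95% interval 0.08 to 1.14, limma adjusted p = 0.133). These intervals and p use the spread shared by the 4 groups, and all 3 genes had a larger SD on chow in both genotypes. For Asl it was 0.48 in Tg_Chow and 0.65 in WT_Chow, but 0.12 in Tg_WD and 0.10 in WT_WD livers. The intervals are therefore narrower than the chow arrays alone would give. Single arrays decided whether these 3 genes were called. Ass1 was called without WT_Chow replicate 2 (-0.68, adjusted p = 0.00447) or Tg_Chow replicate 3 (-0.61, adjusted p = 0.0327). Cps1 was called without Tg_Chow replicate 4 (0.72, adjusted p = 0.0141), and Asl without WT_Chow replicate 4 (0.88, adjusted p = 0.0173) or Tg_Chow replicate 4 (0.83, adjusted p = 0.0484). Split by replicate number, a split that is in no label and was chosen from raw signal, Cps1 differed by 0.98 within replicates 1 and 2. Within replicates 3 and 4 it differed by 0.05, and Asl by 1.10 and 0.12. Ass1 differed by -0.40 and -0.59. For Cps1 and Asl, WT_Chow replicate 1 and Tg_Chow replicate 4 were the lowest of their groups. The split is therefore not separate from the effect of single arrays. The differences of Hal (0.04), Etnppl (0.03), Arg1 (0.06) and Otc (-0.13) had limma adjusted p of 0.924, 0.956, 0.751 and 0.586, and those of Hal and Etnppl turned negative under median scaling.

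Beyond the 9, a list of 73 further genes of nitrogen handling and amino acid breakdown was examined, of which 57 were tested. This list too was chosen with earlier results of these data known, so its shares are descriptions. Of 15 tested accessory genes (transporters, cofactor makers and ammonia handling), 3 fell and 0 rose on the Western diet in Tg livers and 6 fell and 0 rose in WT livers, with medians of -0.19 and -0.34. The shares that fell were 20% and 40%, beside 4.66% and 8.06% of all genes. Of 42 tested amino acid breakdown genes, 4 rose and 1 fell in Tg livers and 1 rose and 5 fell in WT livers, with medians of 0.04 and -0.11. In Tg livers 9.52% of these 42 rose and 2.38% fell, where 5.06% of all genes were called higher. In WT livers 2.38% rose and 11.9% fell, where 10.7% of all genes were called higher. Both lists together had 8 calls in Tg livers, but 5 without Tg_Chow replicate 2, 4 without Tg_WD replicate 1 or 2 and 3 without Tg_WD replicate 4. They had 12 calls in WT livers, but 5 without WT_Chow replicate 3 or WT_WD replicate 3 and 7 without WT_WD replicate 1 or 2. Got1 and Phykpl fell in both genotypes.

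Got1, the cytosolic aspartate aminotransferase that supplies aspartate for the Ass1 step, had the largest falls in the wider list. It read 7.81, 8.0, 8.07 and 7.77 in Tg_WD livers, 7.89, 7.41, 7.0 and 7.82 in WT_WD livers, 9.58, 9.23, 9.45 and 8.34 in Tg_Chow livers and 7.94, 8.64, 9.13 and 9.20 in WT_Chow livers. Western diet arrays lay below chow arrays in each genotype, closely so for WT_Chow replicate 1. Got1 fell by 1.24 in Tg livers (2.36-fold lower, SE 0.28, limma adjusted p = 0.0105) and by 1.20 in WT livers (2.3-fold lower, SE 0.28, limma adjusted p = 0.00612). Both calls held under each of the 27 alternatives run.

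Of 4 amino acid carriers described here, Slc38a2 and Slc38a4 passed the test with diet in WT livers and Slc7a2 in Tg livers. Slc38a2, a neutral amino acid carrier, differed by -0.42 in Tg livers (limma adjusted p = 0.076) and fell by 0.71 in WT livers (limma adjusted p = 0.00227). Slc38a4, another carrier of that family, differed by -0.31 in Tg livers (limma adjusted p = 0.232) and fell by 0.71 in WT livers (limma adjusted p = 0.00483). Neither difference between genotypes passed as an interaction (0.29 for Slc38a2, adjusted p = 0.467; 0.40 for Slc38a4, adjusted p = 0.35). Slc7a2, which carries arginine, lysine and ornithine, fell by 0.67 in Tg livers (limma adjusted p = 0.031) and differed by -0.48 in WT livers (limma adjusted p = 0.0826). Its call was lost without Tg_Chow replicate 1, 2 or 3 or Tg_WD replicate 1, 2 or 4, with adjusted p up to 0.103, and in WT livers it was called without WT_Chow replicate 1 (adjusted p = 0.0296) or Tg_Chow replicate 4 (adjusted p = 0.0377). Slc38a3, a glutamine carrier named after its values were seen, differed by 0.54 in Tg livers (limma adjusted p = 0.0667) and by -0.18 in WT livers (limma adjusted p = 0.532), neither of which passed, and in Tg livers it was called without Tg_WD replicate 3 (0.72, adjusted p = 0.00645).

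Nags, which makes the N-acetylglutamate that Cps1 requires, was chosen for mention after its values were seen. It read 8.65, 8.73, 8.65 and 8.69 in Tg_WD livers, 8.62, 8.56, 8.38 and 8.63 in WT_WD livers, 9.04, 8.96, 9.03 and 8.52 in Tg_Chow livers and 9.0, 8.94, 8.83 and 8.88 in WT_Chow livers. Of the Tg_Chow arrays, 3 lay above every Western diet array, and replicate 4 of that group lay below every Tg_WD array. In Tg livers Nags differed by -0.21 (SE 0.10, limma adjusted p = 0.189) and was called without Tg_Chow replicate 4 (-0.33, adjusted p = 0.0102). In WT livers it fell by 0.36 (SE 0.10, limma adjusted p = 0.0157), a call lost without WT_WD replicate 3 (adjusted p = 0.0619).

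**Figure D3:**
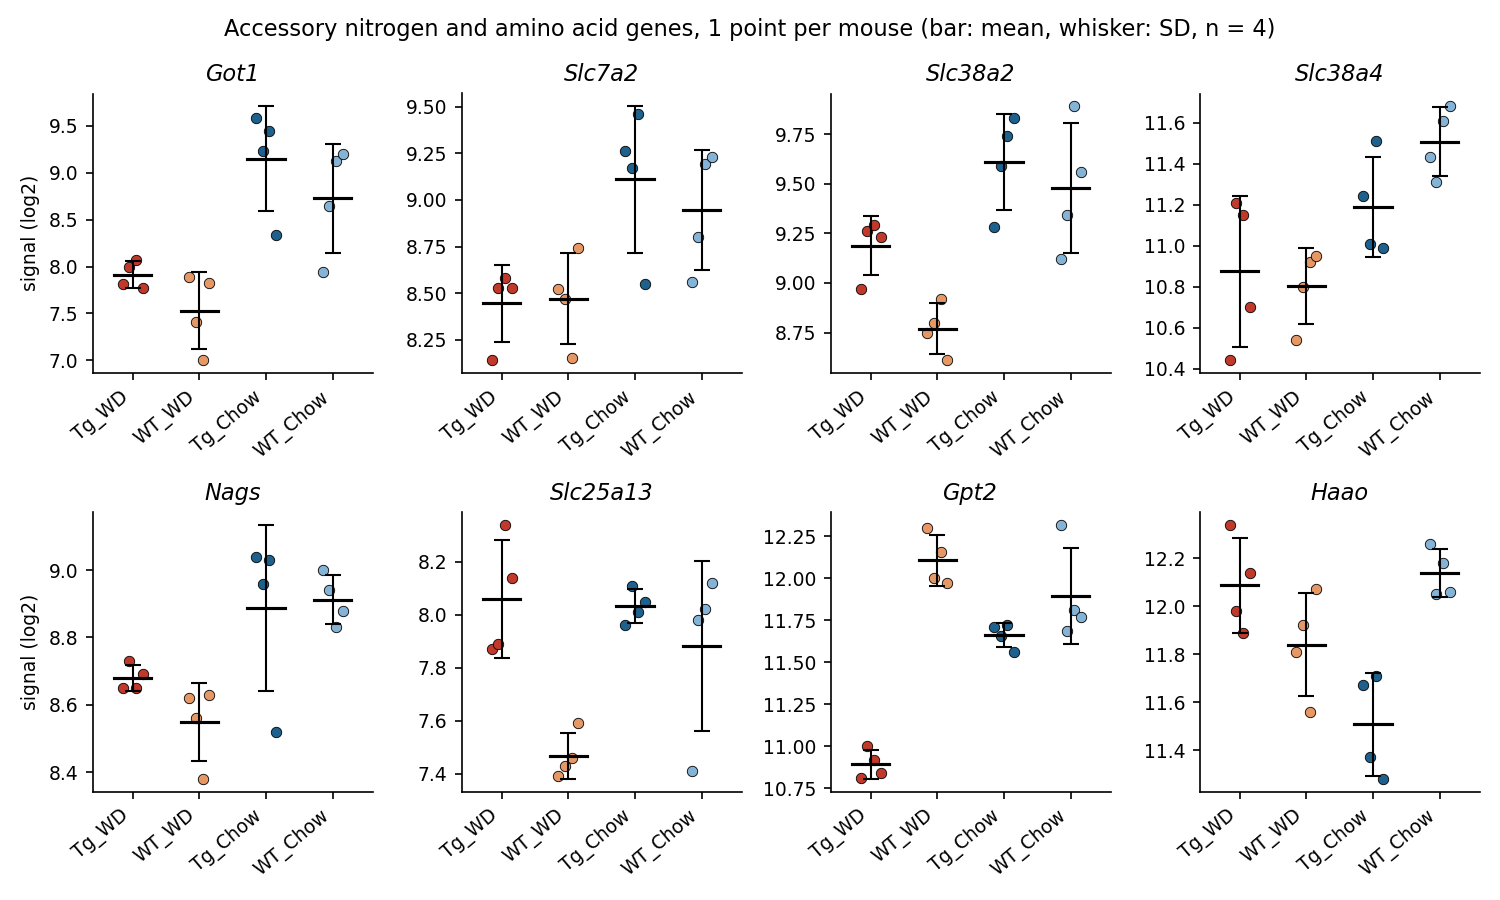
Log2 signal (y axis, a separate range for each gene that does not start at 0) of 8 accessory nitrogen and amino acid genes by group (x axis), with 1 point per mouse, a bar at the mean and a whisker of 1 SD (n = 4). Got1 is lower in both Western diet groups than in the chow group of its genotype, Gpt2 is lowest in Tg_WD livers, and Haao is lowest in Tg_Chow livers.

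Gpt2 and Haao were the 2 genes of the wider list whose diet response differed between genotypes by the interaction test. This is 1.75% of the 57 tested in each direction, where 2.18% of all genes were called higher and 3.25% lower. The list as a whole thus had no more calls than genes in general. Gpt2, the mitochondrial alanine aminotransferase, averaged 10.89 ± 0.09 in Tg_WD, 12.10 ± 0.15 in WT_WD, 11.66 ± 0.07 in Tg_Chow and 11.90 ± 0.29 in WT_Chow livers (SD, n = 4 each). It fell by 0.77 with diet in Tg livers (limma adjusted p = 0.00071), differed by 0.21 in WT livers (limma adjusted p = 0.228) and gave an interaction of -0.98 (SE 0.16, limma adjusted p = 0.00283). Haao, an enzyme that takes tryptophan breakdown towards quinolinate and NAD, averaged 12.09 ± 0.20 in Tg_WD, 11.84 ± 0.21 in WT_WD, 11.51 ± 0.21 in Tg_Chow and 12.14 ± 0.10 in WT_Chow livers (SD, n = 4 each). It rose by 0.58 with diet in Tg livers (limma adjusted p = 0.00629), differed by -0.30 in WT livers (limma adjusted p = 0.0955) and gave an interaction of 0.88 (SE 0.17, limma adjusted p = 0.00721). Both interactions were called under each of the 26 alternatives that apply to them.

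Further wider-list genes passed the test with diet. In Tg livers Aldh4a1, which completes proline breakdown, rose by 0.57 (limma adjusted p = 0.0192, lost without Tg_WD replicate 4 or with median scaling). Hibadh, an enzyme of valine breakdown, rose by 0.35 (limma adjusted p = 0.0304, lost without Tg_Chow replicate 2 or 4 or Tg_WD replicate 1, 2 or 4, or with median scaling). Pccb, a subunit of propionyl-CoA carboxylase, rose by 0.28 (limma adjusted p = 0.047), a call lost under 18 of 27 alternatives. Phykpl, which breaks down phosphohydroxylysine, fell by 0.27 in Tg livers (limma adjusted p = 0.0338, lost under 6 of 27 alternatives) and by 0.24 in WT livers (limma adjusted p = 0.0415, lost under 11). In WT livers Agxt, the alanine-glyoxylate aminotransferase, fell by 0.68 (limma adjusted p = 0.0185, lost without WT_Chow replicate 3 or 4 or WT_WD replicate 1 or 3, or with only the 2 groups). Agxt2, a mitochondrial aminotransferase, rose by 0.50 (limma adjusted p = 0.0205, lost without WT_Chow replicate 1 or 2 or WT_WD replicate 1 or 4, or with median scaling). The other 5 falls in WT livers were named after their values were seen. They were Slc25a13 (-0.42, lost under 8 of 27 alternatives), Aass (-0.37, lost under 19), Hykk (-0.37, lost under 3), Qdpr (-0.37, lost under 5) and Oat (-0.34, lost under 19), with limma adjusted p of 0.0354, 0.0498, 0.0243, 0.0245 and 0.0493.

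Regulators of these pathways were listed as well, 17 transcription factors and cofactors, all tested. On the Western diet 0 of 17 were called in Tg livers (3 lower at an unadjusted limma p under 0.05) and 3 fell in WT livers, a share of 17.6% beside 8.06% of all genes. The 3, named after their values were seen, were Foxa3 (-0.62, limma adjusted p = 0.002), Klf15 (-0.51, limma adjusted p = 0.0221) and Creb3l3 (-0.29, limma adjusted p = 0.0441). Klf15 is known to promote amino acid breakdown genes in fasting, and Creb3l3 is a liver factor induced by fasting. The Klf15 call was lost without WT_Chow replicate 2 or WT_WD replicate 2 or 3, and the Creb3l3 call under 15 of 27 alternatives. In the interaction 0 of 17 were called, with 0 at an unadjusted limma p under 0.05.

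**Figure D4:**
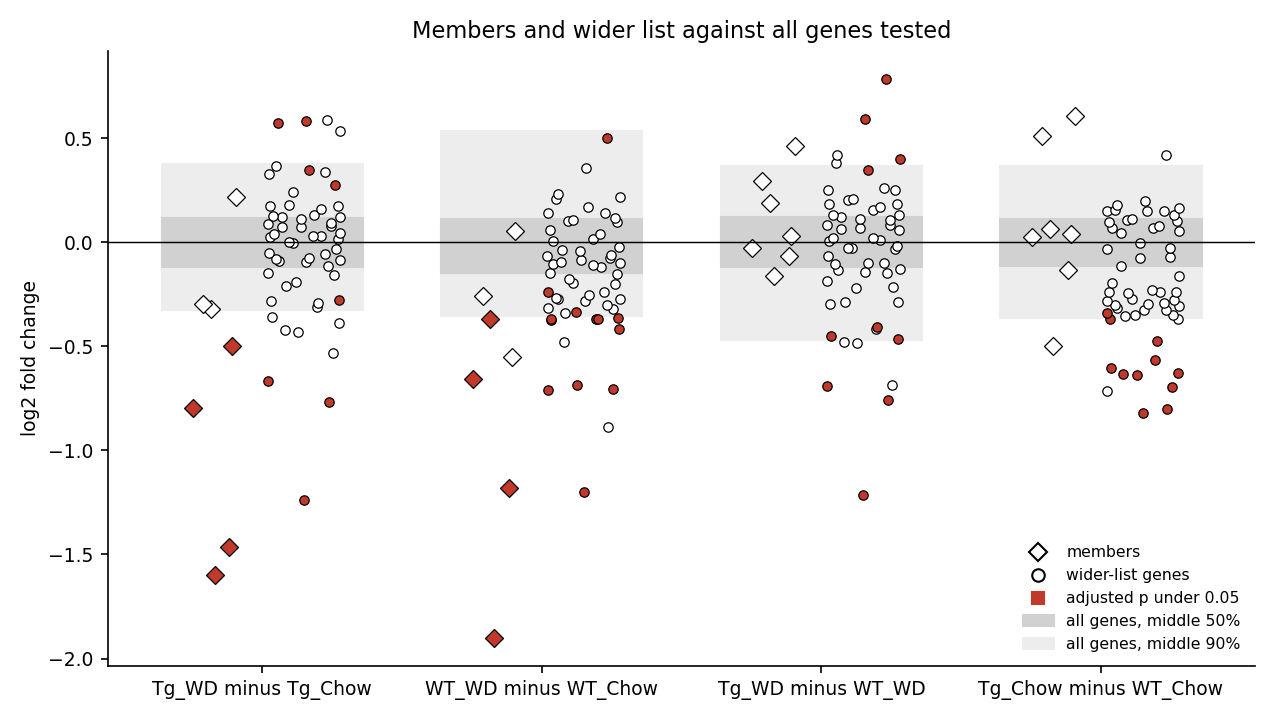
Log2 fold change (y axis) of the 7 tested members (diamonds) and 57 wider-list genes (circles) in 4 comparisons (x axis), filled red where the limma adjusted p was under 0.05, over bands holding the middle 50% and middle 90% of all 7788 genes. In both diet comparisons the called members lie below 0, from -1.60 to -0.50 in Tg and from -1.90 to -0.37 in WT livers, and in the chow comparison of genotypes the 11 called wider-list genes all lie below 0.

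Genotype was compared in the wider list on each diet. On chow 11 of 57 fell in Tg livers and 0 rose, 2 of them accessory and 9 breakdown genes, with a median of -0.24 beside -0.00 over all genes, of which 5.42% were called lower. The count was 5 without WT_Chow replicate 3, 7 without Tg_Chow replicate 2 and 6 without Tg_Chow replicate 4. Aldh4a1 differed most (-0.82, SE 0.14, limma adjusted p = 0.00189). It read 12.05, 11.93, 12.35 and 11.44 in Tg_Chow livers and 12.84, 12.57, 12.99 and 12.65 in WT_Chow livers, with no overlap. Hibadh fell by 0.70 (SE 0.10, limma adjusted p = 0.000223). Its log2 signals were 12.83, 12.64, 12.80 and 12.58 in Tg_Chow livers and 13.53, 13.21, 13.51 and 13.38 in WT_Chow livers, again with no overlap. Aldh6a1, which acts later in valine breakdown, fell by 0.64 (limma adjusted p = 0.0232, lost without WT_Chow replicate 1 or 3 or Tg_Chow replicate 2 or 4). Prodh, which starts proline breakdown, fell by 0.80 (limma adjusted p = 0.0445), a call lost under 13 of 27 alternatives. Pericentral markers fell in 3 of 11 cases on chow, 27.3% beside 5.42% of all genes, and 9 of the 11 differences were below 0. Their sum was 47200 to 51100 in Tg_Chow and 54000 to 58500 in WT_Chow livers. Oat, bright among these markers, averaged 13.85 in Tg_Chow and 14.41 in WT_Chow livers, so the lower sum mainly follows 1 gene. Cyp2e1, the brightest, was not lower, averaging 14.66 in Tg_Chow and 14.57 in WT_Chow livers. Oat is also among the 11 called wider-list genes, so the sum is not separate from that count. The part of the pericentral markers in this result was not tested.

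On the Western diet 4 of the 57 rose and 6 fell in Tg livers, with a median of 0.01, where 6.51% of all genes were called higher and 8.5% lower. Agxt rose by 0.79 (limma adjusted p = 0.00903) and Slc25a13, citrin, the mitochondrial carrier that exports aspartate for the Ass1 step, by 0.60 (limma adjusted p = 0.00478). Slc25a13 read 7.87, 7.89, 8.34 and 8.14 in Tg_WD livers and 7.39, 7.43, 7.46 and 7.59 in WT_WD livers, with no overlap. Qdpr, which recycles the cofactor of phenylalanine hydroxylase, rose by 0.40 (limma adjusted p = 0.0173, lost without WT_WD replicate 3 or Tg_WD replicate 1). Foxa3, one of 2 regulators that rose, was 0.47 higher (limma adjusted p = 0.0151, lost without WT_WD replicate 3). Gpt2 fell by 1.21 (limma adjusted p = 1.56e-06), Agxt2 by 0.76 (limma adjusted p = 0.00147), Bckdhb, a subunit of the branched-chain ketoacid dehydrogenase, by 0.69 (limma adjusted p = 0.0104) and Hibadh by 0.47 (limma adjusted p = 0.00312). The sum of matrix genes in these groups was 5310 to 5930 in Tg_WD and 8220 to 8840 in WT_WD livers, and its part in these differences was not tested.

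Genes whose profile over the 16 arrays was most like that of a member were ranked by Pearson correlation among all 7788. These values are descriptions over arrays that share diet and genotype groups. Got1 was the nearest to Asl (r = 0.95, and 0.84 after group means were removed) and second nearest to Cps1 (r = 0.90, and 0.92 within groups). Slc7a2 was nearest to Cps1 (r = 0.92, and 0.91 within groups), and Fbxo31 followed Got1 for Asl (r = 0.95, and 0.79 within groups). Kiss1 and Fh1 were nearest to Etnppl (r = 0.94 each, and 0.47 and 0.80 within groups). For Arg1 they were Nnmt and Mt2 (r = 0.89 each), for Hal Slc25a34 (0.85) and Ahcy (0.84), and for Ass1 Ube2u and Nle1 (0.88 each). Otc was nearest to Huwe1 (0.87, and 0.91 within groups) and Tpp2 (0.84, and 0.81 within groups). Its correlations with the other 6 members ran from -0.34 to 0.14, and from 0.04 to 0.46 within groups. Asl correlated with Etnppl at 0.90 and with Cps1 at 0.86, and at 0.66 and 0.72 within groups. Its values within groups were 0.45 with Arg1, 0.35 with Hal, 0.13 with Ass1 and 0.04 with Otc. The SD of Asl and Etnppl was larger on chow in both genotypes, so these within-group values rest mainly on the chow arrays.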

How the data were processed

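The authors deposited 1 scanner table per array with a linear signal intensity for each of 25697 rows, and a matrix of the same arrays whose values lie within 0.063 of log2 of the quantile-normalized intensities and keep their order. The matrix was treated as log2 and not centred (column medians 6.254 to 6.264). No source used here gives its scaling step, or a slide or scan date. The matrix served to choose 1 row per gene, the highest in mean, and as an alternative.

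Intensities were background-corrected by normexp (offset 50), quantile-normalized and put on the log2 scale, using R 4.3.3 with the packages limma (3.58.1) and data.table (1.17.8). Control probes needed for other corrections are not in the tables used here. The upper 50% of rows by mean were kept (filter 6.29), giving 7788 genes. The platform annotation named 23978 rows, of which 23962 matched a RefSeq gene (GRCm38.p6) by Entrez identifier, 1719 rows were unnamed, and 57 rows whose values also stand under another symbol were left out. Cps1, Otc, Asl and Etnppl have 2 rows each with the same values, which were counted once. The offset shrinks differences of dim genes, and levels of different genes were not compared because probes differ.

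One fit gave each group a mean (4 arrays each, 12 residual degrees of freedom), and the 4 groups shared 1 estimate of spread per gene. Contrasts were tested with eBayes, two-sided, with Benjamini-Hochberg adjustment over 7788 genes. On data simulated for the 7788 genes, 2-fold changes were recovered in 97% to 99% of cases in the 4 group comparisons and 95% in the interaction, and 1.5-fold changes in 90% to 95% and 67%. The simulated spread of a gene was equal in all groups, and the changed genes were drawn at random. Asl, Hal and Etnppl had an SD of 0.41 to 0.65 on chow, where the median gene had 0.13 or 0.14. These rates therefore do not give the power for such members. Errors are SE for differences and SD for levels. The split of replicates 1 and 2 from 3 and 4 is in no label, and was used because the 5th percentile of raw signal (52.3 to 62.9 over all arrays) was higher in replicates 1 and 2 of each group except WT_WD, where it overlapped.

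The members, the gene lists and the tests were chosen with earlier results of these data known. Named genes were the 9 members, Cyp7a1, up to 4 called rises and 4 called falls of the wider lists per comparison, the 3 brightest genes of a marker list and the 2 genes most alike to each member, unless said otherwise. Alternatives were the matrix, an offset of 16, no background correction, median scaling, the mean of all rows of a gene, no filter, the upper 25% of rows, an intensity trend, only the 2 groups compared, a replicate block, replicates 1 and 2 against 3 and 4 as a term, and leaving out each array, 27 in all for a group comparison.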

Additional observations from a re-analysis of the deposited data

Results flagged for a closer look

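Single mice stood apart from the other 3 of their group by Dixon's test in 7 of 104 groups, over the 26 genes examined. Chance marks about 1 in 20 groups, so 7 of 104 is close to that rate. Among the members there were 3. Cps1 was lowest in WT_WD replicate 3 at 11.77, against 12.28 to 12.38 in the other mice of that group. Arg1 was lowest in WT_Chow replicate 2 at 13.72 (others 14.06 to 14.09), and Etnppl in Tg_WD replicate 2 at 7.99 (others 8.29 to 8.33).

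In the wider lists, Foxa3 was low in WT_WD replicate 3 at 10.65 (others 11.02 to 11.03) and Qdpr in WT_Chow replicate 1 at 10.79 (others 11.07 to 11.09). Slc7a2 was low in Tg_WD replicate 1 at 8.14 (others 8.53 to 8.58), and Bckdhb was high in Tg_WD replicate 3 at 10.01 (others 9.40 to 9.50). WT_WD replicate 3 was thus lowest for both Cps1 and Foxa3.

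The diet response of 2 of 57 wider-list genes differed between Tg and WT livers by the interaction test, where 5.43% of all genes were called. Haao differed by 0.88 (limma adjusted p = 0.00721), with a rise in Tg livers, and Gpt2 by -0.98 (limma adjusted p = 0.00283), with a fall in Tg livers.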

How the results depend on the processing

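The diet falls of Asl and Etnppl in both genotypes, of Arg1 in Tg and of Ass1 in WT livers were called under all 27 alternatives run for each. Calls that moved for 1 array are given beside their genes. With the replicate block the members called were the same, and the counts over all genes were 807 for diet in Tg, 1458 for diet in WT, 1216 and 772 for genotype on Western diet and chow, and 403 for the interaction. The numbers were treated as not pairing the mice. Deviations of same-numbered arrays correlated at -0.21 to 0.24 and of others at -0.26 to 0.27, and for 9 of 16 arrays the closest array of another group had the same number, a hint from the data and not the design.

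Over all genes, genotype on chow gave 776 calls, 1388 with median scaling (183 higher and 1205 lower, against 354 and 422), 311 with only these 2 groups and 418 to 934 without 1 array. Genotype on the Western diet gave 1169, 741 with the upper 25% of rows and 919 to 1373 without 1 array, and median scaling split it into 294 higher and 1130 lower, against 507 and 662. Diet in WT gave 1461, 822 with the upper 25% and 1023 to 1643 without 1 array, and diet in Tg gave 757 and 467 to 1027. The interaction gave 423, 259 with the upper 25% and 262 to 481.

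Of the 7 members, genotype on chow called 1 with median scaling (Ass1, -0.59, limma adjusted p = 0.0311) and 0 to 2 without 1 array. On the Western diet it called 1 with only these 2 groups. Diet in WT called 3 to 5 without 1 array, and diet in Tg 3 to 4. In the wider list genotype on chow called 25 with median scaling, 6 with only the 2 groups and 5 to 16 without 1 array; on the Western diet 9 to 15; diet in WT 5 to 18; diet in Tg 5 with median scaling and 3 to 12 without 1 array; the interaction 4 and 2 to 3. Causes were not tested.

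Small genotype differences changed sign. On chow, median scaling gave Hal -0.10 and Etnppl -0.17, and leaving out 1 array gave Arg1 -0.02 to 0.15, Hal -0.16 to 0.29 and Etnppl -0.15 to 0.22. On the Western diet median scaling gave Arg1 0.01 and Otc -0.09, and leaving out 1 array gave Cps1 -0.17 to 0.03 and Otc -0.09 to 0.11. The diet difference of Otc in WT livers ran from -0.05 to 0.17 without 1 array. The arrays, 4 a group, limit the precision, and Tat lay too near background to test.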

Other observations

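For 6 of the 7 tested members, Otc being the exception, the SD over 4 arrays was smaller on the Western diet in both genotypes, which held for 38.3% of all genes (2981 of 7788) and for 26 of 57 wider-list genes. Asl had an SD of 0.12 in Tg_WD and 0.48 in Tg_Chow livers, and of 0.10 in WT_WD and 0.65 in WT_Chow livers. For Etnppl the SD was 0.16 in Tg_WD and 0.60 in Tg_Chow livers, and 0.12 in WT_WD and 0.45 in WT_Chow livers. Hal had 0.17 in Tg_WD and 0.53 in Tg_Chow livers, and 0.12 in WT_WD and 0.41 in WT_Chow livers. Some differences were small: Cps1 had 0.29 in WT_WD and 0.33 in WT_Chow livers, and Ass1 had 0.20 in Tg_WD and 0.27 in Tg_Chow livers. Without Tg_Chow replicate 4, the SD of the other 3 Tg_Chow arrays was 0.11 for Cps1 (0.42 with it), 0.23 for Asl, 0.25 for Hal and 0.57 for Etnppl. The median SD over all genes was 0.11 in Tg_WD, 0.10 in WT_WD, 0.13 in Tg_Chow and 0.14 in WT_Chow livers. This pattern was noticed after the values were seen, and the difference in spread was not tested.

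On chow the low mouse was not the same for each gene. In Tg_Chow livers replicate 4 was the lowest of its group for Cps1, Asl, Arg1, Hal, Etnppl, Got1, Slc7a2 and Nags, but not for Otc (7.86) or Ass1 (13.09). It also had the highest summed macrophage signal of its group, 7610, with 4280 to 4790 in the other 3 mice. Without this mouse the diet differences in Tg livers were -1.82 for Asl, -1.65 for Etnppl, -1.0 for Cps1, -0.58 for Arg1 and -0.54 for Hal, of which that of Hal did not pass (limma adjusted p = 0.0701). Its macrophage signal's part in these levels was not tested. In WT_Chow livers the highest macrophage sum, 4710 in replicate 4, went with the highest Asl of that group (11.25). Among WT_Chow livers replicate 1 was lowest for Cps1 (12.04), Asl (9.66), Etnppl (9.18), Got1 (7.94) and Slc7a2 (8.56), whereas replicate 2 was lowest for Arg1 (13.72), Ass1 (13.22), Hal (11.44) and Otc (7.72).

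Of the other genes whose roles touch the cycle, Oat, which turns ornithine towards glutamate, differed between Tg and WT livers on chow by -0.56 (limma adjusted p = 0.00521). Slc38a3, a glutamine carrier, differed there by -0.63 (limma adjusted p = 0.0337), a call lost under 7 of 27 alternatives. Both genes were named after their values were seen.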
